A study of Mus musculus with 2 samples.

Results

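The genes of translation initiation and elongation factors, taken as the protein-coding genes whose symbol starts with Eif or Eef in the GENCODE mm10 annotation, were examined for regions recovered with antibodies to Etv4 and Etv5. There were 69 such genes among 21938 protein-coding genes on the nuclear chromosomes. Of these, 55 carried the prefix Eif and 14 the prefix Eef. By function, 53 encoded factors proper or their subunits, and 16 encoded kinases, methyltransferases, binding proteins or other regulators. The data came from 2 ChIP-seq libraries of EpRas cells, the H-Ras-transformed derivative of the EpH4 mouse mammary gland epithelial cell line. The cells were kept in 4% fetal bovine serum and were fixed 1.5 h after the addition of TGF-β3 at 1 ng/ml. One library was made with a rabbit polyclonal antibody to Etv4 and the other with a mouse monoclonal antibody to Etv5, so that every cell examined was Ras-transformed and TGF-β-treated. Neither an untreated nor an input library was used here.

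Translation starts when the initiation factors (eIFs) bring the initiator tRNA, the small ribosomal subunit and the capped mRNA together and let the subunit scan to the start codon. Elongation factors (eEFs) then deliver aminoacyl-tRNA to the ribosome and move it along the mRNA. Signalling through Ras and mTOR is known to reach this step at the cap-binding factor eIF4E and its binding proteins, at eIF4B and at the eEF2 kinase, while stress signalling acts through phosphorylation of eIF2. Etv4 and Etv5 are closely related transcription factors of the PEA3 branch of the ETS family, which binds DNA around a GGAA core and whose activity rises downstream of Ras.

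There were 13636 Etv4 regions and 8297 Etv5 regions, and 5150 of the former shared at least 1 bp with one of the latter. The lists give a position for each region and a region number, and no read count, height or p-value. The depth behind each list is therefore unknown, and so is its part in the unequal length of the lists. With 1 library per antibody there was no replicate, and no test between the antibodies or of the gene group was possible. Shares are given with exact (Clopper-Pearson) 95% intervals, which cover counting error only and treat genes as independent. A region was counted near a start when its midpoint lay within 2 kb of any annotated transcript start of the gene, and in the body when it lay inside the gene beyond 2 kb of all of that gene's starts. Distances are those of region midpoints from the main start, which is 1 chosen transcript start per gene, and are negative upstream.

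The sequences shown first are those of the regions near a start that hold the 8-letter ETS pattern, CAGGAAGT or CCGGAAGT, searched on both strands. Among the 69 genes, 11 such matches lay in regions near a start or in the 500 bp around their midpoints, in 9 genes. The share of regions with the pattern was not above that near all genes for Etv4, with 15.8% against 16.2% over the whole region, and was 11.1% against 11.2% for Etv5. The promoters of Eif2ak1, the haem-regulated kinase of eIF2 alpha, and of Eif3d, a cap-binding subunit of eIF3, are shown because an ETS match lay upstream of the start and inside the region recovered. Both run over the 250 bases before the main start on the strand of the gene (GRCm38), with the pattern or its reverse complement in capitals.
Eif2ak1 promoter (chr5:143817538-143817787, plus strand): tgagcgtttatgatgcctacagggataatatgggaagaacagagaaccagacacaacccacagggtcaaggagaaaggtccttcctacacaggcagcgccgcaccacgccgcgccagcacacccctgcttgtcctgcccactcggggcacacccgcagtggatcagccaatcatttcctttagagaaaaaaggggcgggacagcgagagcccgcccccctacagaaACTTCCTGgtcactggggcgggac
Eif3d promoter (chr15:77970814-77971063, minus strand): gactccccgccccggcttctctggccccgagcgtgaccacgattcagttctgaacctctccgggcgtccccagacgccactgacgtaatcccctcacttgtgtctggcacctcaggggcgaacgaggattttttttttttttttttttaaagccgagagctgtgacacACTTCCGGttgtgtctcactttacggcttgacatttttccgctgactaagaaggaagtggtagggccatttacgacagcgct

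The remaining matches within 500 bp of a main start are shown in 30 bases, read on the strand that carries the pattern, which is in capitals. They are given because 4 of these 5 lay downstream of the main start, in the first part of the transcribed gene.
Eif2ak1 (chr5:143817796-143817825, minus strand): ctccccccaagCCGGAAGTaacacaagagc
Eif2b2 (chr12:85219486-85219515, plus strand): cctctctcggcCCGGAAGTgaaacagtgct
Eif2b4 (chr5:31193120-31193149, minus strand): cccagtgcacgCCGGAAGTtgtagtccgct
Eif3l (chr15:79075176-79075205, minus strand): gcttggccggaCCGGAAGTcccgcccagcc
Eif4a1 (chr11:69672678-69672707, minus strand): gtccagactgcCCGGAAGTtcctggaggct

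Counted to the centre of the pattern, the matches lay 21 bp before and 22 bp after the main start of Eif2ak1, 78 bp before that of Eif3d, 11 bp after that of Eif3l, 19 bp after that of Eif2b2, 296 bp after that of Eif2b4 and 375 bp before that of Eif4a1. Of these 7 matches, the upstream one of Eif2ak1 carried CAGGAAGT and the other 6 carried CCGGAAGT. The other 4 matches lay farther from the main start, between 1047 and 5435 bp after it, in an exon of Eef1b2, Eef2 and Eif4a1 and in an intron of Eif4a2. A match describes the letters present and does not show which protein was bound there.

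The Etv4 list had a region near a start of 28 of the 69 factor genes, or 40.6% (28.9 to 53.1%). Over all protein-coding genes the share was 17.9%. The Etv5 list had one at 16 of the 69 genes, or 23.2% (13.9 to 34.9%), beside 10.6% of all genes. Both shares of the factor genes had intervals that lay above the share of all genes. For Etv4 this was not so without chromosomes 11, 15 and 19, where the lower bound met the share of all genes. For Etv5 it was not so among CpG-rich genes alone or with the longer 50% of the list. A region of either list was found near a start of 34 genes, or 49.3% (37 to 61.6%), against 22% of all genes. The other 35 genes had none.

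Regions of both lists were found near a start of 10 factor genes, or 14.5% (7.17 to 25%), against 6.46% of all genes. The share of all genes lay inside the interval under other settings, among them a distance of 1 kb (10.1%, 4.18 to 19.8%, against 5.31%), the autosomes alone and CpG-rich genes alone. In 9 of them, or 13% (6.14 to 23.3%), an Etv4 and an Etv5 region overlapped, against 5.6% of all genes. These were Eif1ad, Eif2b2, Eif2s3x, Eif3f, Eif4a1, Eif4b, Eef1akmt4, Eef1d and Eef2. At Eef1b2 the regions of the 2 lists lay apart. The Etv4 list alone had a region at 18 genes and the Etv5 list alone at 6, namely Eif2ak1, Eif2ak3, Eif3e, Eif4e, Eif4g1 and Eif5. Since the Etv4 list is the longer one and its depth is unknown, a gene in 1 list only is not shown to be bound by 1 factor only.

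**Figure D1:**
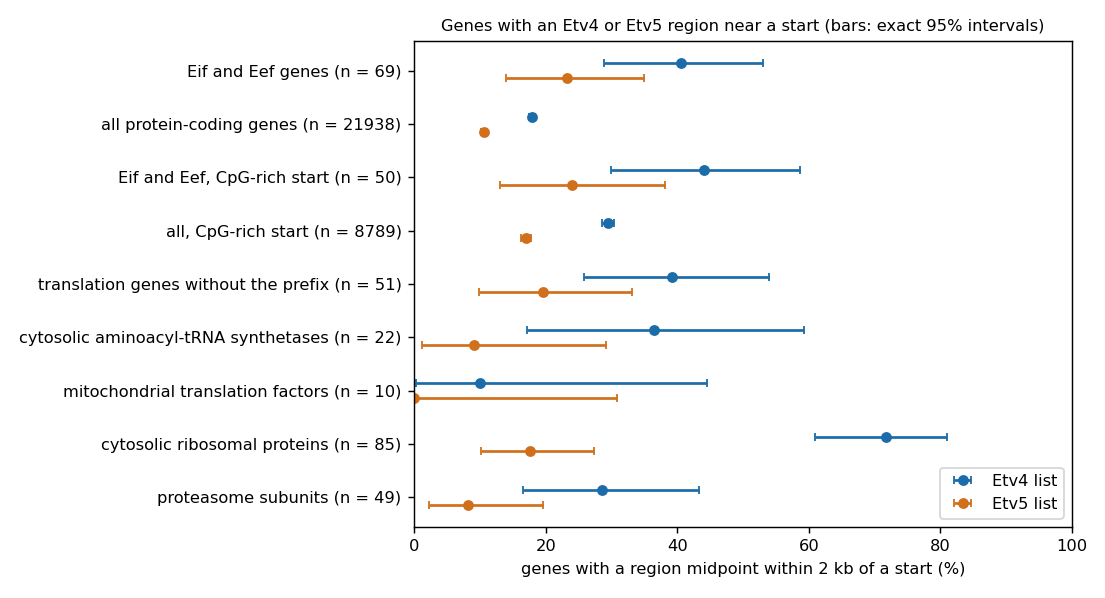
Share of genes with a region midpoint within 2 kb of a start, in percent (horizontal axis), for the Eif and Eef genes, all protein-coding genes, the genes of each kind with a CpG-rich main start, and 5 other gene lists; blue points are the Etv4 list, orange points the Etv5 list, and bars are exact 95% intervals. The Eif and Eef genes sit at 40.6% for Etv4 and 23.2% for Etv5, above all genes at 17.9% and 10.6%, and the ribosomal protein genes reach 71.8% for Etv4 with 17.6% for Etv5.

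Factor genes differed from the average gene in the make-up of their starts. A CpG-rich main start, with a CpG ratio above 0.6 and a GC content above 55% in the 500 bases on either side, was found in 50 of the 69 genes (72.5%) and in 40.1% of all genes. Among the CpG-rich factor genes, 22 (44%, 30 to 58.7%) had an Etv4 region near a start, against 29.5% of all CpG-rich genes. For Etv5 there were 12 (24%, 13.1 to 38.2%), against 17% of all CpG-rich genes, a share inside the interval of the factor genes. Among the 19 factor genes without such a start, 6 had an Etv4 region (31.6%, against 10.2% of the corresponding genes) and 4 an Etv5 region (21.1%, against 6.27%). The difference from the average gene was thus smaller within CpG-rich genes for both lists.

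Factor genes also had more annotated starts, with a median of 4 against 3 per gene. Counted per length of window around the starts, the 38 Etv4 regions came to 6.47 per 100 kb (4.58 to 8.88), against 2.6 over all genes. The 18 Etv5 regions came to 3.06 per 100 kb (1.82 to 4.84), against 1.42. The gene bodies did not show this difference. An Etv4 region lay in the body of 6 factor genes (8.7%, 3.26 to 18%), against 10.1% of all genes, and an Etv5 region in that of 1 gene (1.45%, 0.0367 to 7.81%), against 7.39%. With a distance of 1 kb instead of 2 kb, 4 genes (5.8%) had an Etv5 region in the body, against 8.13%. Per length, bodies of factor genes held 0.42 Etv4 regions per 100 kb (0.154 to 0.913), against 0.451 over all genes, and 0.0699 Etv5 regions per 100 kb (0.00177 to 0.39), against 0.275, and all 4 values of all genes lay inside the intervals. The median body measured 12.2 kb in factor genes and 11.5 kb in all genes.

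**Figure D2:**
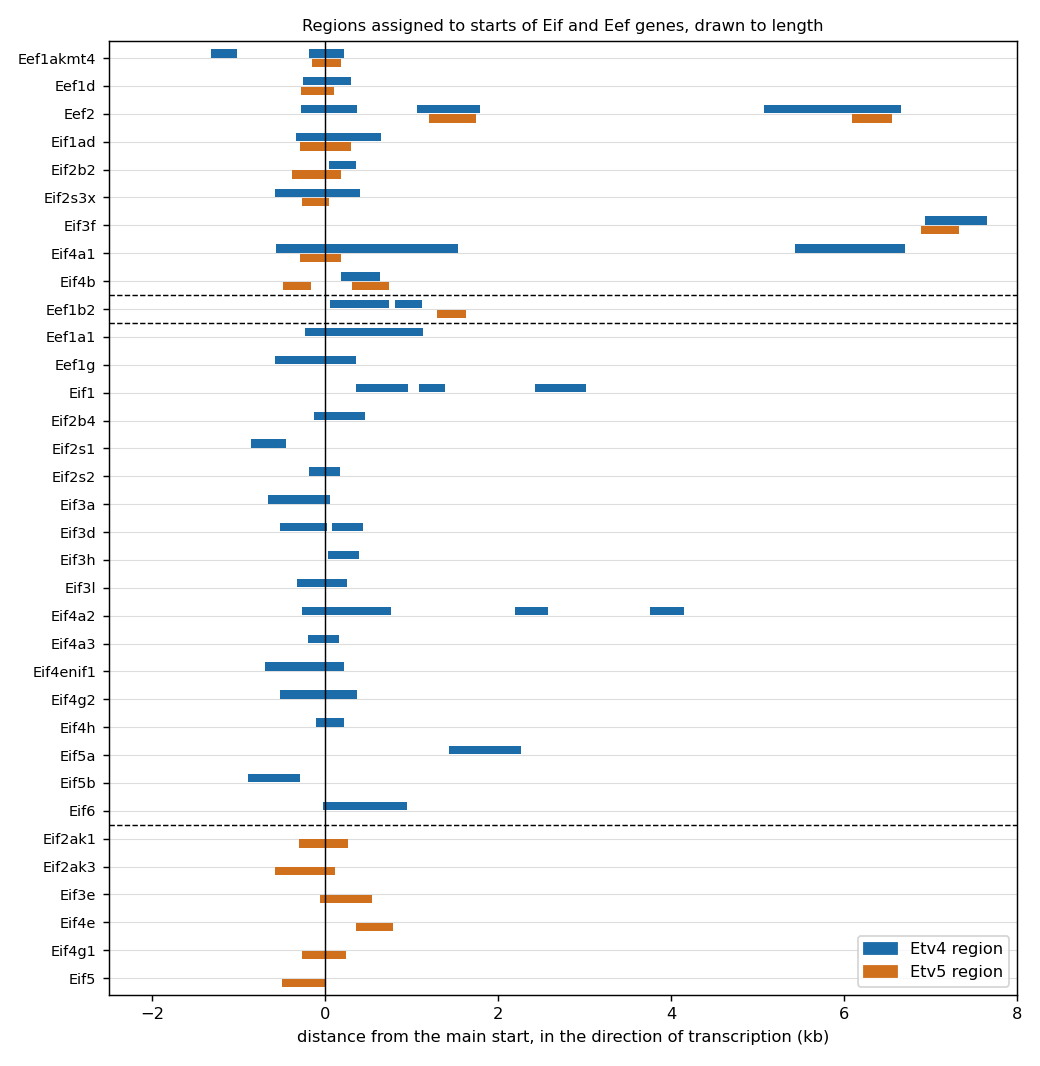
Position of each region assigned to a start of an Eif or Eef gene, drawn to length, against the distance from the gene's main start in kb, positive in the direction of transcription; blue bars are Etv4 regions and orange bars Etv5 regions, and dashed lines separate genes with overlapping regions of both lists, regions of both lists apart, Etv4 regions only and Etv5 regions only. In all, 19 of the 38 Etv4 regions and 11 of the 18 Etv5 regions span the main start, and those of Eif3f sit about 7 kb downstream, near an alternative start.

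Most regions sat directly on a start. In all, 25 of the 38 Etv4 regions and 11 of the 18 Etv5 regions spanned an annotated start, beside 64.5% of the Etv4 and 53.1% of the Etv5 regions near any gene's start. The median Etv4 region at a factor gene measured 597 bp (568 bp near all genes) and the median Etv5 region 464 bp (486 bp). Of the Etv4 regions 26.3% (13.4 to 43.1%) overlapped an Etv5 region, and of the Etv5 regions 55.6% (30.8 to 78.5%) overlapped an Etv4 region, against 28.3% and 53.4% near all genes. Both overlap shares near all genes lay inside these intervals. A start of another protein-coding gene lay closer to the midpoint in 7 Etv4 and 2 Etv5 regions, as at Eif2s1, where the start of Atp6v1d was 331 bp away and that of Eif2s1 655 bp away. Such a region cannot be told apart as belonging to one gene or the other. In none of the regions near starts of factor genes did more than 50% of the 36-base stretches have another copy in the genome.

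The genes of eIF1 and eIF1A, which keep the scanning subunit open until the start codon is found, were represented by 2 of 5, both with an Etv4 region (40%, 5.27 to 85.3%, an interval that included the 17.9% of all genes). Eif1 had 3 Etv4 regions and no Etv5 region. Their midpoints lay 660, 1236 and 2720 bp after the main start, and in the first 2 of them 22.9% and 16.7% of the 36-base stretches had another copy in the genome. Eif1ad, which encodes a protein with an eIF1A-like domain, had an Etv4 region at chr19:5366401-5367386 (986 bp, midpoint at 152 bp, number 1923 of the list) and an Etv5 region at chr19:5366448-5367044 (597 bp, midpoint at 4 bp, number 3816). The Etv5 region lay wholly within the Etv4 region. The start of Banf1 was 102 bp and 46 bp from these midpoints. No region was found at Eif1a, Eif1ax or Eif1b.

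Of the genes of eIF2, which carries the initiator tRNA to the ribosome, the alpha, beta and X-linked gamma subunits (Eif2s1, Eif2s2 and Eif2s3x) each had an Etv4 region. Among the 6 genes of eIF2, eIF2A and eIF2D, 3 had an Etv4 region (50%, 11.8 to 88.2%) and 1 an Etv5 region (16.7%, 0.421 to 64.1%). Both intervals included the shares of all genes (17.9% and 10.6%). The Etv4 region over the start of Eif2s3x, at chrX:94212307-94213287 (981 bp, midpoint at -87 bp), was number 218 of the Etv4 list, within its first 1.6%. The Etv5 region of Eif2s3x at chrX:94212661-94212980 (320 bp, -111 bp, number 6090) lay inside it, and 33% of its 36-base stretches had another copy in the genome. Regions were rare on this chromosome, where 2.64% of the protein-coding genes had a region of either list near a start. A smaller Etv4 region of 346 bp lay in the body of Eif2s3x, 5.09 kb after the main start. The Y-linked copy Eif2s3y had none, nor had Eif2a and Eif2d, which encode alternative carriers of the initiator tRNA.

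Regions were found at 2 of the 5 genes of eIF2B, the exchange factor that reloads eIF2 with GTP. The intervals, 5.27 to 85.3% for Etv4 and 0.505 to 71.6% for Etv5, included the shares of all genes (17.9% and 10.6%). Eif2b2, which encodes the beta subunit, had an Etv4 region at chr12:85219522-85219835 (314 bp, 197 bp after the main start, number 11895) and an Etv5 region at chr12:85219097-85219663 (567 bp, -102 bp, number 3801). They shared 142 bp, and the ETS match shown above lay inside the Etv5 region and just upstream of the Etv4 region. Eif2b4, the delta subunit, had an Etv4 region alone at chr5:31192974-31193554 (581 bp, 167 bp, number 7368), with an ETS match inside it. The start of the neighbouring Snx17 was 21 bp from its midpoint.

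Of the 4 kinases that phosphorylate eIF2 alpha under stress, 2 had an Etv5 region near a start and 0 an Etv4 region. The Etv5 region of Eif2ak1 at chr5:143817486-143818053 (568 bp, -19 bp, number 4864) held both of the ETS matches of that gene. The Etv5 region of Eif2ak3, which encodes the endoplasmic reticulum stress kinase PERK, spanned 692 bp with its midpoint at -237 bp and was number 468 of 8297, within the first 5.64% of the list. It held no ETS match. No region lay at Eif2ak2, the double-stranded RNA-activated kinase PKR, or at Eif2ak4, the amino acid sensor GCN2. With 4 genes the intervals were 6.76 to 93.2% for Etv5 and 0 to 60.2% for Etv4, which included the shares of all genes (10.6% and 17.9%), and no difference between the lists is shown for this group.

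eIF3, the large scaffold that holds the small subunit, is encoded by 14 of the genes, and 6 of them had a region near a start, of which 5 had an Etv4 region (35.7%, 12.8 to 64.9%) and 2 an Etv5 region (14.3%, 1.78 to 42.8%). The shares of all genes, 17.9% and 10.6%, lay inside both intervals. Eif3d had adjoining Etv4 regions on either side of its start. The upstream one, at chr15:77970798-77971336 (539 bp, -253 bp, number 10694), held the ETS match, and the downstream one, at chr15:77970371-77970732 (362 bp, 262 bp, number 10490), held none. Eif3l had an Etv4 region over its start at chr15:79074859-79075434 (576 bp, -33 bp, number 6268), with the ETS match and 1 AP-1 match. Eif3a and Eif3h each had 1 Etv4 region near a start, at -302 and 216 bp, and Eif3e an Etv5 region at 245 bp.

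At Eif3f the arrangement differed. Its overlapping regions, Etv4 at chr7:108941348-108942064 (717 bp, number 6046) and Etv5 at chr7:108941311-108941746 (436 bp, number 4396), lay 7.29 and 7.11 kb after the main start. They were counted only because an alternative start was 1.4 and 1.22 kb away, and the main start of Eif3f had no region. The 500 bp around their midpoints held 3 and 2 matches to the AP-1 pattern, TGACTCA or TGAGTCA, and no ETS match. The remaining 8 genes of eIF3 (Eif3b, Eif3c, Eif3g, Eif3i, Eif3j1, Eif3j2, Eif3k and Eif3m) had no region.

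In the cap-binding machinery, all 3 genes of the eIF4A helicases, which unwind the leader of the mRNA, and both genes of their cofactors, Eif4b and Eif4h, had an Etv4 region near a start, beside 17.9% of all genes. With so few genes the intervals were 29.2 to 100% for eIF4A and 15.8 to 100% for eIF4B and eIF4H, and the latter included the share of all genes. Eif4a1 had the longest one among the factor genes, at chr11:69670787-69672880 (2094 bp, 484 bp, number 2629). It spanned 8 annotated starts and held 2 ETS matches, both outside the central 500 bp. The Etv5 region of Eif4a1 at chr11:69672132-69672606 (475 bp, -51 bp, number 4308) lay wholly inside it. A further Etv4 region at chr11:69665621-69666888 (1268 bp, number 1806) lay 6.06 kb after the main start, beyond the end of the gene and 101 bp from the start of Cd68.

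Eif4a2 had 3 Etv4 regions near starts and 1 in its body, and no Etv5 region. The first, at chr16:23107178-23108203 (1026 bp, 246 bp, number 1329), spanned 13 starts. The second, at chr16:23109642-23110016 (375 bp, 2.38 kb, number 11079), held the ETS match in an intron. At 3.95 kb lay the last, in which 26% of the 36-base stretches had another copy in the genome, the highest value among the Etv4 regions of the factor genes. Eif4a3, whose product belongs to the exon junction complex, had 1 Etv4 region at -15 bp.

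Eif4b, the stimulator of eIF4A, had an Etv4 region at chr15:102073960-102074404 (445 bp, 408 bp, number 10002) that shared 322 bp with an Etv5 region at chr15:102074083-102074506 (424 bp, 521 bp, number 6314). Both lay in an intron and neither spanned a start. A second Etv5 region, at chr15:102073292-102073608 (317 bp, number 7900), lay upstream at -324 bp. Eif4h had a single Etv4 region at 60 bp.

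The cap-binding protein gene Eif4e had an Etv5 region of 429 bp centred 567 bp after the main start and no Etv4 region. Its relatives Eif4e1b, Eif4e2 and Eif4e3 had none. For these 4 genes the intervals were 0 to 60.2% for Etv4 and 0.631 to 80.6% for Etv5. Both included the shares of all genes (17.9% and 10.6%). The genes of the 4E-binding proteins that hold eIF4E back, Eif4ebp1, Eif4ebp2 and Eif4ebp3, had no region in either list, near a start or in the body. Over all genes, 78% had no region of either list near a start. Eif4enif1, which encodes the eIF4E transporter, had an Etv4 region of 915 bp at -237 bp that was number 305 of the list, within its first 2.24%. For the 4E-binding proteins and this gene together the intervals were 0.631 to 80.6% for Etv4 and 0 to 60.2% for Etv5, which included the shares of all genes. Of the eIF4G scaffolds, Eif4g1 had an Etv5 region at -12 bp, Eif4g2 an Etv4 region of 894 bp at -76 bp, and Eif4g3 no region near a start. The interval for eIF4G was 0.84 to 90.6% for each list and included the shares of all genes.

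**Figure D3:**
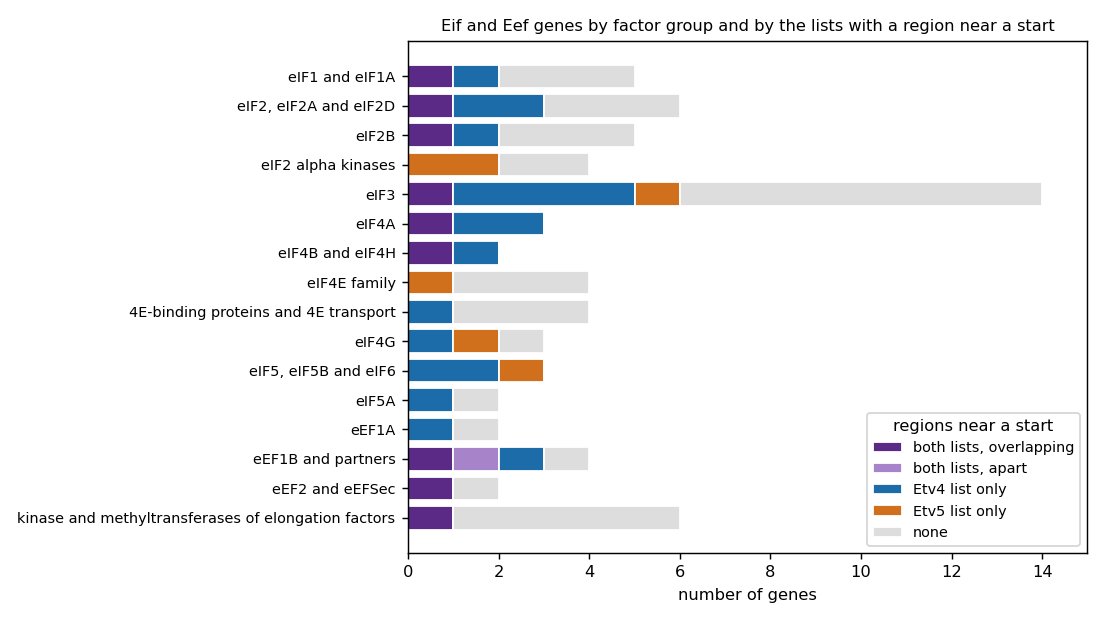
Number of Eif and Eef genes (horizontal axis) in each factor group (vertical axis), coloured by whether regions of both lists overlapped, regions of both lists lay apart, or regions of 1 list or none lay near a start. All 3 eIF4A genes and both genes of eIF4B and eIF4H have an Etv4 region, the 4 eIF2 alpha kinases have Etv5 regions only at 2, and 8 of the 14 eIF3 genes have none.

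All 3 genes of the subunit-joining group had a region, 2 of them from the Etv4 list (interval 9.43 to 99.2%) and 1 from the Etv5 list (0.84 to 90.6%), intervals that included the shares of all genes. Eif5, which triggers GTP hydrolysis on eIF2, had an Etv5 region at -250 bp. Eif5b, which joins the subunits, and Eif6, which keeps the large subunit apart, had Etv4 regions at -592 and 461 bp, and the start of Txndc9 lay 103 bp from the midpoint at Eif5b. Eif5a, whose product carries hypusine and relieves stalled ribosomes, had an Etv4 region at 1.85 kb, whereas its relative Eif5a2 had none.

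Among the 14 genes with the prefix Eef, 6 had an Etv4 region (42.9%, 17.7 to 71.1%) and 4 an Etv5 region (28.6%, 8.39 to 58.1%), values close to the 40% (27 to 54.1%) and 21.8% (11.8 to 35%) of the 55 genes with the prefix Eif. The shares of all genes, 17.9% and 10.6%, lay inside both Eef intervals. Split by function, 25 of the 53 factors proper had an Etv4 region (47.2%, 33.3 to 61.4%), and of the 16 regulators 3 had one (18.8%, 4.05 to 45.6%), beside 17.9% of all genes. For Etv5 the shares were 22.6% (12.3 to 36.2%) and 25% (7.27 to 52.4%). Eef1a1, the widely expressed carrier of aminoacyl-tRNA, had an Etv4 region of 1357 bp at 451 bp, and its tissue-restricted relative Eef1a2 had none. Of the exchange complex that reloads this carrier, Eef1b2, Eef1d and Eef1g had a region. Eef1e1, whose product is an auxiliary protein of the multi-aminoacyl-tRNA synthetase complex, had none. Of these 4 genes 3 had an Etv4 region (75%, 19.4 to 99.4%) and 2 an Etv5 region (50%, 6.76 to 93.2%). The share of all genes lay just below the interval for Etv4 and inside it for Etv5.

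At Eef1d the Etv4 region at chr15:75909054-75909614 (561 bp, 22 bp, number 7918) and the Etv5 region at chr15:75909256-75909630 (375 bp, -87 bp, number 5032) shared 359 bp and each spanned 11 starts. Eef1b2 had Etv4 regions at chr1:63176877-63177560 (684 bp, 393 bp, number 4114) and chr1:63177635-63177945 (311 bp, 964 bp, number 13185), followed by an Etv5 region at chr1:63178124-63178449 (326 bp, 1461 bp, number 6898). No Etv4 region of Eef1b2 overlapped its Etv5 region. The ETS match of Eef1b2 lay outside the Etv5 region, within the 500 bp around its midpoint.

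Eef2, the translocase that moves the ribosome, had 3 Etv4 and 2 Etv5 regions. The Etv4 region over its start, at chr10:81176357-81176994 (638 bp, 44 bp, number 3348), had no Etv5 counterpart. The overlapping pair lay in an exon, with Etv4 at chr10:81177693-81178424 (732 bp, 1427 bp, number 4134) and Etv5 at chr10:81177832-81178374 (543 bp, 1471 bp, number 3875). A second pair lay around the end of the gene, with Etv4 at chr10:81181701-81183293 (1593 bp, 5.87 kb, number 716) and Etv5 at chr10:81182727-81183179 (453 bp, 6.32 kb, number 3891). The start of Dapk3 was 509 and 53 bp from the last 2 midpoints, so that these regions were nearer to another gene. In the exonic pair 10.5% (Etv4) and 13.6% (Etv5) of the 36-base stretches had another copy in the genome.

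Of the kinase and methyltransferases that modify elongation factors, Eef1akmt4 had overlapping regions over its start, Etv4 at chr16:20611413-20611816 (404 bp, 21 bp, number 11440) and Etv5 at chr16:20611447-20611776 (330 bp, 18 bp, number 6871). The start of Gm49333, an annotated gene that overlaps Eef1akmt4, was 4 and 1 bp from these midpoints. Another region, Etv4 at chr16:20610270-20610573 (304 bp, number 13391), lay at -1172 bp and nearer to Alg3. Eef2k, the kinase that inhibits eEF2, had no region near a start and an Etv4 region of 464 bp in an intron, 23.3 kb after the main start. Of the 6 genes of this group 1 had a region near a start in each list (16.7%, 0.421 to 64.1%). The interval included the shares of all genes (17.9% and 10.6%).

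In all, 7 factor genes had at least 2 Etv4 regions near a start (10.1%, 4.18 to 19.8%), against 3.04% of all genes. These were Eef1akmt4, Eef1b2, Eef2, Eif1, Eif3d, Eif4a1 and Eif4a2. At Eef1akmt4 and Eif4a1 this number was reached only with a region nearer to the start of another gene. Each of the 7 regions in gene bodies was the only one in its gene. The Etv4 ones lay in introns of Eef2k, Eif2s3x and Eif3h (350 bp, 11.6 kb after the main start) and in exons of Eif4a2 (819 bp, 5.5 kb), Eif4b (318 bp, 17.6 kb) and Eif4g2 (520 bp, 13 kb). The Etv5 one lay in an intron of Eif4g3 (chr4:138070275-138070787, 513 bp, number 5624), 77.1 kb after its main start. Counting bodies too, 33 factor genes had no region of either list. Those not named above were Eef1akmt1, Eef1akmt2, Eef1akmt3, Eef2kmt, Eefsec, Eif2b1, Eif2b3 and Eif2b5.

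The ETS pattern was then sought from 250 bases before to 50 after the main start of every gene, whether or not a region lay there. It was found in 13 of the 69 factor genes, or 18.8% (10.4 to 30.1%), and in 8.17% of all genes. Among genes with a CpG-rich start the shares were 20% (10 to 33.7%) of the factor genes and 9.75% of all. CCGGAAGT alone was found in 14.5% (7.17 to 25%) of the factor genes and in 5% of all genes, and among CpG-rich genes in 18% (8.58 to 31.4%) of the factor genes and in 7.88% of all. In a wider window, the 500 bases on either side of the main start, the ETS pattern was found in 23.2% (13.9 to 34.9%) of the factor genes, and the 14.3% of all genes then lay inside the interval. Among CpG-rich genes this wider window gave 26% (14.6 to 40.3%) of the factor genes and 15.5% of all, again inside the interval. CCGGAAGT alone was found in it in 17.4% (9.32 to 28.4%) of the factor genes and 7.24% of all. Among CpG-rich genes its shares were 22% (11.5 to 36%) and 11.1%, and both shares of all genes lay below the intervals. In the shorter window, the letters of the ETS pattern written backwards, TGAAGGAC or TGAAGGCC, were found in 0 of the 69 promoters (upper limit of the interval 5.21%) and in 1.8% of all promoters, a share inside the interval.

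The 13 genes were Eef1b2, Eef1e1, Eif1a, Eif2ak1, Eif2ak2, Eif2b2, Eif2s1, Eif3d, Eif3f, Eif3i, Eif3l, Eif4e2 and Eif5a2. Of these, 7 had a region near a start and 6 had none. The promoter match lay inside an Etv5 region at Eif2ak1 and Eif2b2 and inside an Etv4 region at Eif3d and Eif3l. At Eef1b2, Eif2s1 and Eif3f it lay outside the regions. An Etv4 region lay near a start of 46.2% (19.2 to 74.9%) of the genes with the pattern and of 39.3% (26.5 to 53.2%) of the 56 genes without it, and the intervals overlapped widely. For Etv5 the shares were 30.8% (9.09 to 61.4%) and 21.4% (11.6 to 34.4%). Over all genes, 27.4% with and 17% without the pattern had an Etv4 region, and 12.5% and 10.4% an Etv5 region.

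Seen from the regions, the ETS shares near all genes lay inside the intervals of the factor genes. The pattern was found in the central 500 bp of 5 of the 38 Etv4 regions, or 13.2% (4.41 to 28.1%), against 14.2% of the Etv4 regions near any start. Of the 18 Etv5 regions 3 held it, or 16.7% (3.58 to 41.4%), against 10.7%. The AP-1 pattern was found in 3 of the 38 Etv4 regions, or 7.89% (1.66 to 21.4%), against 16.5%, and in 1 of the 18 Etv5 regions (Eif3f), or 5.56% (0.141 to 27.3%), against 17.5%. Both shares near any start lay inside the intervals. The E-box CACGTG, which reads the same on both strands and is bound by Myc among others, was found in 23.7% (11.4 to 40.2%) of the Etv4 regions, against 12.9%, a share inside the interval, and in 38.9% (17.3 to 64.3%) of the Etv5 regions, against 12.3%. Over the whole region the E-box was found in 28.9% (15.4 to 45.9%) of the Etv4 regions, against 15.2%, and in 22.2% (6.41 to 47.6%) of the Etv5 regions, against 12.3%, a share inside the interval. In 200 bp it was found in 10.5% (2.94 to 24.8%) of the Etv4 regions, against 5.38%, and in 11.1% (1.38 to 34.7%) of the Etv5 regions, against 5.46%, both inside the intervals.

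The E-box was also found within 500 bases of the main start in 33.3% (22.4 to 45.7%) of the factor genes, against 17% of all genes. Among CpG-rich genes the shares were 34% (21.2 to 48.8%) of the factor genes and 22.2% of all, which lay inside the interval. It was found in 42.9% (24.5 to 62.8%) of the 28 factor genes with an Etv4 region and in 26.8% (14.2 to 42.9%) of the 41 without one. These intervals overlapped. Over all genes it was found in 22.4% of those with an Etv4 region and in 15.8% of those without one. In the shorter promoter the E-box was found in 13% (6.14 to 23.3%) of the factor genes, against 7.78% of all genes, a share inside the interval. The YY1 pattern AAGATGGC was found within 500 bases of the main start in 18.8% (10.4 to 30.1%) of the factor genes, against 7.68% of all genes. Among CpG-rich genes the shares were 18% (8.58 to 31.4%) and 10.3%, inside the interval. The RUNX pattern, TGTGGTT or TGTGGTC, was rarer in this window, in 13% (6.14 to 23.3%) of the factor genes against 24.3% of all genes. Among CpG-rich genes its shares were 10% (3.33 to 21.8%) and 17.4%, inside the interval. CCGGAAGT is part of the ETS pattern, and no other pattern searched contains another.

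**Figure D4:**
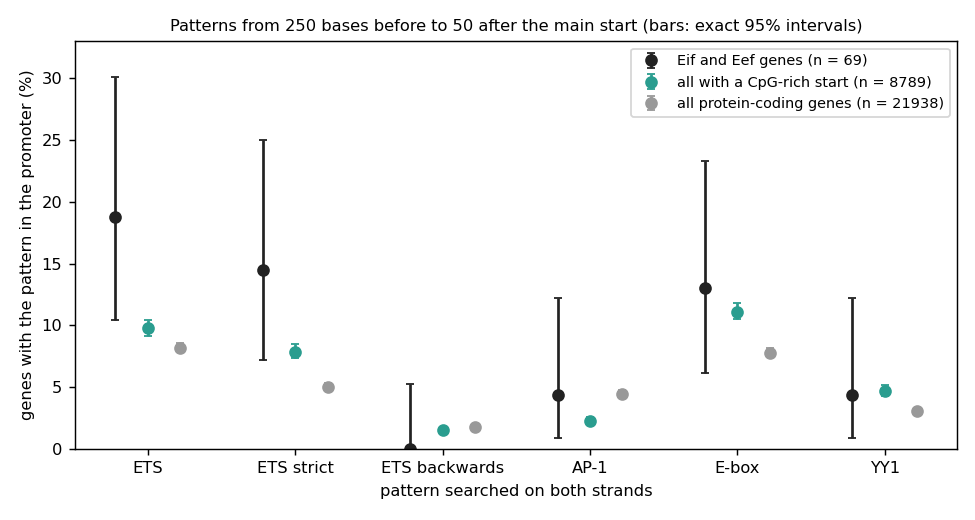
Share of genes with each pattern from 250 bases before to 50 after the main start, in percent, for the Eif and Eef genes (black), all genes with a CpG-rich start (green) and all protein-coding genes (grey); bars are exact 95% intervals, ETS strict is CCGGAAGT alone, and the YY1 pattern is AAGATGGC. The ETS pattern stands at 18.8% in the Eif and Eef genes, beside 9.75% and 8.17%, and the backwards letters at 0, while in this window the intervals for AP-1 and YY1 include the shares of all genes.

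The factor genes with regions were unevenly spread over the genome. Chromosomes 11, 15 and 19, which had the highest shares over all genes (31.2, 36.7 and 37.8% with a region of either list near a start), carry 14 of the 69 factor genes. All 14 had a region, and 13 had an Etv4 region (92.9%, 66.1 to 99.8%), against 28.4% of all genes there. An Etv5 region was found at 5 of them (35.7%, 12.8 to 64.9%), against 18.4%, a share inside the interval. Without an input library, a share set by the number of copies of a chromosome in EpRas cells cannot be told apart from one set by binding. On the other chromosomes 15 of 55 factor genes had an Etv4 region, or 27.3% (16.1 to 41%), against 16.1% of all genes, so that the lower bound of the interval met the share of all genes. For Etv5 the share there was 20% (10.4 to 33%), against 9.26%. On the chromosomes 4, 8, 13, 14, 17, 18 and Y none of the factor genes had a region near a start, but each of these carries only 1 to 3 of them, and on chromosomes 8 and 17, with 1 each, 29.9% and 29% of all genes had one.

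**Figure D5:**
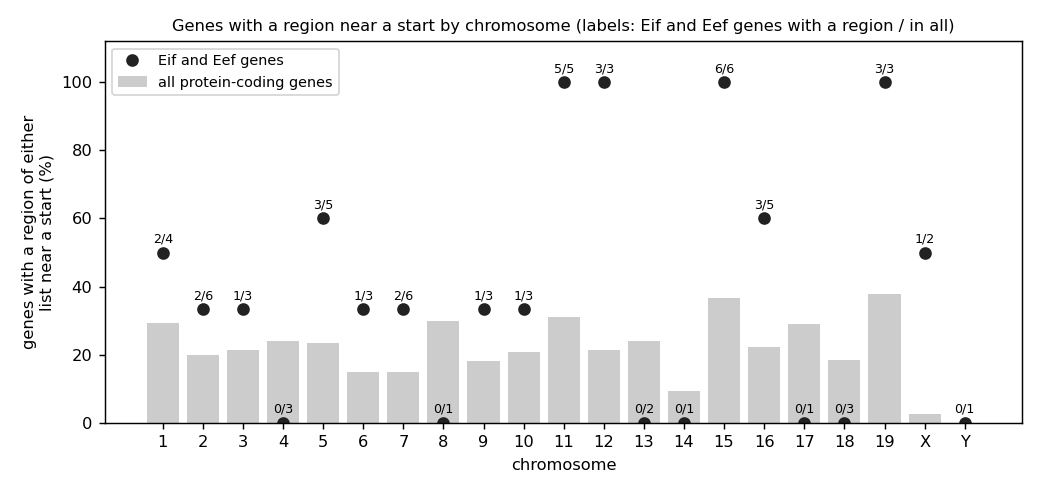
Share of genes with a region of either list near a start, in percent, by chromosome; grey bars are all protein-coding genes, and points are the Eif and Eef genes, labelled with the number that had a region and the number on the chromosome. All 5 factor genes of chromosome 11, all 6 of chromosome 15 and all 3 of chromosomes 12 and 19 have a region, and chromosomes 11, 15 and 19 also have the tallest bars.

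Other genes of translation and, for comparison, of the proteasome were counted in the same way. Of 51 translation genes without the prefix (mTOR complex and eIF4E kinase genes, poly(A)-binding and release factors and others) 20 had an Etv4 region near a start (39.2%, 25.8 to 53.9%) and 10 an Etv5 region (19.6%, 9.82 to 33.1%), shares close to those of the factor genes. The share of all genes lay below the interval for Etv4 (17.9%) and inside it for Etv5 (10.6%). Overlapping regions lay at 4 of the 51 genes (7.84%, 2.18 to 18.9%), against 5.6% of all genes, a share inside the interval. These were Abce1, Cyfip1, Ncbp1 and Rptor, the last of which had 4 Etv4 and 2 Etv5 regions near its starts. Of 22 genes of cytosolic aminoacyl-tRNA synthetases and their partners 8 had an Etv4 region (36.4%, 17.2 to 59.3%) and 2 an Etv5 region (9.09%, 1.12 to 29.2%), and both intervals included the shares of all genes. Of 10 mitochondrial translation factor genes only Mtif2 had an Etv4 region and 0 had an Etv5 region (upper limit of the interval 30.8%).

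The genes of the cytosolic ribosomal proteins differed in the balance of the lists. An Etv4 region lay near a start of 61 of 85 (71.8%, 61 to 81%), an interval wholly above that of the factor genes, and an Etv5 region near that of 15 (17.6%, 10.2 to 27.4%), which lies inside the interval of the factor genes. Of the 49 proteasome genes 14 had an Etv4 region (28.6%, 16.6 to 43.3%) and 4 an Etv5 region (8.16%, 2.27 to 19.6%). For both lists these intervals overlapped those of the factor genes and included the shares of all genes, 17.9% and 10.6%.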

How the data were processed

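ChIP-seq was performed by the authors on EpRas cells with 1 library per antibody. Per the labels and the methods of the study, libraries were amplified by 15 cycles of PCR, reads were mapped to mm10 (Bowtie in the submitters' processing notes, bowtie2 in the methods for the accessibility libraries, to which those for ChIP-seq refer), and regions were called per library by CisGenome in its one-sample analysis, at a p threshold of 0.1 in windows of 300 bp, without an input library. Local copy number, open chromatin and mappability are therefore not removed. The deposited files list region positions in bp and a region number whose criterion is not stated, used here only as an order. Every region carries the same deposited score, 1000, which was not used.

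Gene starts came from GENCODE M21, and sequence from GRCm38 (mm10), read at 1 main start per gene because the RefSeq promoter table held only 53 of the 69 genes. The main start was that of the protein-coding transcript ranked first by the annotation. The gene group, the factor groups and the other lists were chosen with earlier results of these data known. Every gene with a region near a start is named, with coordinates for genes in both lists or with an ETS match. Intervals came from scipy 1.17.1 and figures from matplotlib 3.10.9 under Python 3.11.15, and scripts were tested on simulated regions and sequences. Alternatives were other distances, start sets, midpoint or any base, region lengths, equal list lengths, regions of repeated sequence, narrower gene sets and other pattern windows.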

Additional observations from a re-analysis of the deposited data

How the results depend on the processing

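The shares of factor genes near a start (Etv4, Etv5, both lists) and in bodies, and those of the ETS pattern in regions and promoters, were recomputed under other settings, which gave 53 values planned at the outset and 12 added after seeing the data. The other shares were not recomputed this way. A share was called moved when it left the exact interval of the reported value, and 44 and 11 values stayed inside. With the longer 50% of each list, which holds fewer regions by construction, the shares of factor genes near a start fell. They were 23.2% for Etv4 (all genes 8.81%), 8.7% for Etv5 (4.54%) and 2.9% for both lists (2.43%). Those in bodies fell to 1.45% for Etv4 (all genes 6%) and 0% for Etv5 (4.24%). With the Etv4 list cut to its longest 8297 regions, the Etv4 share in bodies was 1.45% (all genes 7%). These body shares of all genes lay inside the intervals of the factor genes. In a 200 bp window 2.63% of the Etv4 regions held the ETS pattern, against 6.85% near all genes. The backwards letters were found in 0% of the central 500 bp windows of either list, against 3.87% (Etv4) and 4.35% (Etv5) near all genes. Of the added settings, leaving out chromosomes 11, 15 and 19 gave 27.3% for Etv4. Across all 45 near-start values the factor genes lay above all genes, by 1.49 to 2.69 times for Etv4, 1.41 to 2.47 times for Etv5 and 1.2 to 2.65 times for both lists, and the lowest ratios for Etv4 and Etv5 came from CpG-rich genes alone. In 9 of the 45 the share of all genes reached the interval of the factor genes: for both lists with 1 kb, the longer 50%, equal list lengths, autosomes, the other chromosomes and CpG-rich genes, for Etv5 with the longer 50% and CpG-rich genes, and for Etv4 on the other chromosomes. The share of Etv4 bodies passed from below to above that of all genes with a distance of 1 kb (11.6% against 11%) or with any base counted (11.6% against 10.2%). The cause was not tested. Depth limits all of this, since the read number behind each list is unknown. No paired analysis was possible because no replicate exists for either antibody.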
